A study of Mus musculus with 22 samples.

Results

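Ly6c2 monocytes of the olfactory epithelium (OE) are described here across 8 mice, as the cells of the single-cell RNA-seq (scRNA-seq) libraries that carried transcripts of the monocyte genes Ly6c2, Ms4a6c and F13a1 and few transcripts of the genes that mark other leukocytes. Of 32293 deposited cell barcodes, 25185 were kept because they had more than 500 genes, more than 1500 unique molecular identifiers (UMIs, each standing for 1 captured transcript) and less than 20% mitochondrial UMIs. Members were chosen by their own transcript counts: a kept cell was counted as a Ly6c2 monocyte when Ly6c2, Ms4a6c and F13a1 summed to at least 3 UMIs, the complement genes C1qa, C1qb and C1qc to less than 5 UMIs, the B cell genes Cd79a and Cd79b to less than 3 UMIs, the progenitor granule genes Mpo, Prtn3, Elane and Ctsg to less than 0.2% and the neutrophil genes S100a8 and S100a9 to less than 5% of its UMIs. This gave 1338 monocytes, 262 from WT and 1076 from Upf3b-null mice. The study asked what loss of UPF3B, a factor of nonsense-mediated RNA decay (NMD), does to the olfactory system. The mice were males aged 7 to 8 weeks, C57BL/6J in the paper and C57BL/6 in the sample labels. They were 4 WT (Upf3b+/y) and 4 Upf3b-null (Upf3b-/y), with no other allele or transgene named and no treatment. Each library held the dissociated OE of 1 mouse after removal of dead cells, with no sort for leukocytes. Blood left in the tissue, or bone marrow taken along in the dissection, could therefore contribute cells. The source of the members was not tested. The null allele was present in every cell of the animal.

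Ly6C-positive monocytes are made in the bone marrow from cycling precursors and leave for the blood and tissues through the chemokine receptor CCR2. In tissue they can take on the features of macrophages or of antigen-presenting cells, which display peptides on MHC class II molecules. NMD degrades transcripts with premature stop codons and some normal transcripts, and UPF3B is one of the proteins that link it to the exon junction complex.

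The 3 genes of the rule were found together in most members. Ly6c2, which encodes a surface antigen of inflammatory monocytes, had at least 1 UMI in 88.9% of the members, Ms4a6c in 89.1% and F13a1, a coagulation factor made by monocytes, in 72.7%. All 3 were detected in 855 cells and exactly 2 of them in 306, while 88 cells carried Ly6c2 alone, 81 Ms4a6c alone and 8 F13a1 alone. Just inside the limit, 124 members had 3 UMIs of the 3 genes, of which 109 also carried at least 3 UMIs of the leukocyte genes Ptprc, Tyrobp, Fcer1g, Coro1a, Laptm5 and Cd52. Just outside it, 258 otherwise eligible cells had 2 UMIs, of which 141 did so. At the other end 795 members had 9 UMIs or more. Overall 1319 of the 1338 members passed the leukocyte genes. Before the other limits were applied, 2847 kept cells reached 3 UMIs of the 3 genes. Of these, 1029 were at or past the limit on S100a8 and S100a9, 441 on the granule genes, 133 on the complement genes and 44 on the B cell genes, some on more than 1. Ly6c2 has a close paralog in Ly6c1, so its counts may depend on how reads shared between the pair were assigned, which was not tested. Ly6c1 had a UMI in 32 members (2.39%). The barcodes of 51 members also occurred in another library.

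The members were unevenly spread over the libraries. The WT mice 1 to 4 gave 58, 113, 14 and 77 monocytes and the Upf3b-null mice 1 to 4 gave 398, 81, 76 and 521. Their UMIs summed to 229604, 300825, 56814 and 354184 in the WT mice and to 1570790, 373780, 375934 and 2063444 in the Upf3b-null mice. The shallowest sum, that of WT mouse 3, stood apart from all others. Its 14 cells had a median mitochondrial share of 14.97%, against 4.16% to 7.39% in the other mice, and only 10 of them passed the leukocyte genes. A UMI of Ccr2 was found in 4 of the 14 cells and one of Plac8 in 4. The log2 levels of its monocyte sum correlated with those of the other mice at r between 0.57 and 0.78, whereas the other pairs of mice lay between 0.80 and 0.95 (Pearson's r across genes within a pair of sums, as a description). Comparisons of genotypes are over all 8 mice, and the values without WT mouse 3 are given where they move.

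Free or attached RNA of other cells was present in the members and differed between libraries. It was read from genes that monocytes are not known to express. Hbb-bs, a beta-globin of red cells, stood at 257, 23.3, 2253 and 7462 CPM (counts per 1e6 UMIs of the monocyte sum) in WT mice 1 to 4. In Upf3b-null mice 1 to 4 it stood at 1689, 26.8, 46402 and 7984 CPM. WT mouse 2 and Upf3b-null mouse 2 were the lowest and Upf3b-null mouse 3 the highest, and the groups overlapped. Omp, the mature olfactory neuron marker, was at 47.9, 26.6, 1144 and 559 CPM in the WT and at 281, 155, 545 and 552 CPM in the Upf3b-null mice. The 5 erythroid genes were lowest and highest in the same libraries in neurons and in monocytes: in neurons, the sum was 62.5 CPM in WT mouse 2 and 179717 CPM in Upf3b-null mouse 3, and in monocytes 63.2 and 98387 CPM. Between these the orders differed, and Upf3b-null mouse 1 had less than WT mouse 1 in neurons (2730 and 3370 CPM) but more in monocytes (4200 and 418 CPM). At least 3 UMIs of the 7 olfactory neuron genes, in cells thinned to 1500 UMIs, were found in 1.72%, 0%, 85.7% and 51.9% of the monocytes of WT mice 1 to 4 and in 12.6%, 4.94%, 52.6% and 43.6% of those of Upf3b-null mice 1 to 4. For both lists the sum in the monocytes was lower in the mice numbered 1 and 2 than in those numbered 3 and 4, in both genotypes, which did not hold for macrophage or T and NK cell genes.

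**Figure D1:**
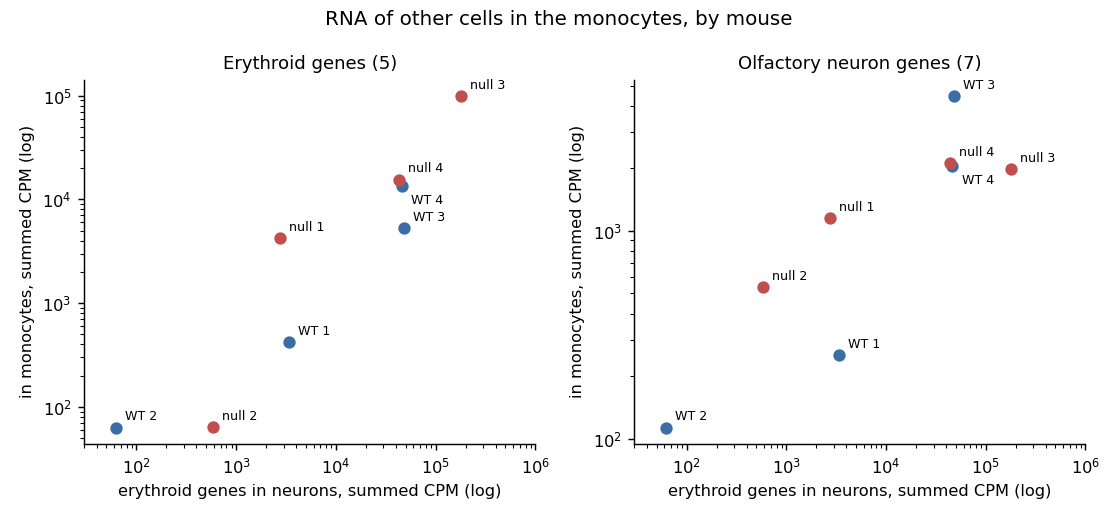
Summed CPM of 5 erythroid genes (left) and 7 olfactory neuron genes (right) in the monocytes of each mouse (y axes, log scale) against the summed CPM of the erythroid genes in the neurons of the same mouse (x axes, log scale), WT in blue and Upf3b-null in red. The libraries numbered 3 and 4 lie at the upper right, with 43403 to 179717 CPM of erythroid genes in their neurons, and those numbered 1 and 2 at the lower left.

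The cells were then set beside the other myeloid classes of the same libraries: macrophages (657 cells with at least 5 UMIs of the C1q genes), neutrophils (2766 cells with at least 5% of UMIs from S100a8 and S100a9) and myeloid progenitors (399 cells with at least 0.2% from the granule genes), with 12642 neurons for background. The classes were cut by transcripts, so these contrasts are descriptions and carry no test. Means are over the 7 mice without WT mouse 3 (6 for progenitors, since Upf3b-null mouse 2 had too few). Ccl9, a chemokine that the rule did not use, averaged 531 ± 256 CPM in the monocytes (SD, n = 7), 183 in progenitors, 94.3 in macrophages, 9.497 in neutrophils and 4.97 in neurons. It was higher in the monocytes than in each of these classes in each of these mice. In WT mouse 3 it was at 70.4 CPM, below the macrophages of that mouse. Thinned to 1500 UMIs, 40.6% of the members had a Ccl9 UMI, and 0.767% of the neurons. For Ccr2, the receptor that draws monocytes out of the marrow, the shares were 60.0% and 0.577%. The median depth was 3315 UMIs in the monocytes and 2719.5 in the neurons. After the same thinning, Ccr2 was found in 55.2% of the monocytes or more in each mouse but WT mouse 3, where the share was 14.3%.

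Genes of monocyte identity were among the most abundant transcripts. Lyz2, the lysozyme of phagocytes, averaged 17381 ± 7714 CPM in the monocytes, against 9983 in macrophages, 10561 in neutrophils and 2298 in progenitors. Ifitm3, an interferon-induced membrane protein, averaged 3094 ± 837 CPM against 282, 962 and 364 CPM in the same order. Both were higher in the monocytes than in macrophages and neutrophils in all 7 mice. Plac8 separated the monocytes from mature cells but not from precursors, with 2882 ± 857 CPM in monocytes, 125 in macrophages, 405 in neutrophils and 4039 in progenitors. Lgals3, a carbohydrate-binding protein of phagocytes, averaged 2682 ± 951 CPM against 318 CPM in macrophages and 809 CPM in neutrophils. Coro1a, an actin regulator of leukocytes, was at 1233 ± 356 CPM against 283 and 890 CPM. Ranked by the ratio of means with 20 CPM added to each, the genes furthest above macrophages were Ly6c2, Chil3, Plac8, Hp, Crip1 and Fn1. Those furthest above neutrophils were Crip1, Ms4a6c, Lgals1, Ccr2, Fn1 and S100a10. The ranks of Ly6c2 and Ms4a6c follow from the rule, and Ly6c2 was higher in progenitors than in monocytes in all 6 mice compared.

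Macrophage and neutrophil products were low but not absent. Apoe, a lipid carrier made by macrophages, was at 1005 ± 462 CPM in the monocytes and 61810 CPM in macrophages. In monocytes the 8 macrophage genes summed to between 510 and 2111 CPM, with Apoe the most abundant and Lyve1 at 0 in every mouse. Camp, an antimicrobial peptide of neutrophil granules, was at 26.1, 23.3, 10754 and 819 CPM in WT mice 1 to 4. In the Upf3b-null mice it was at 451, 21.4, 795 and 438 CPM, so that WT mouse 3 alone set the WT mean, and neutrophils averaged 48627 CPM without that mouse. Mmp8, a neutrophil collagenase, was at 129 ± 39.5 CPM against 886 CPM in neutrophils. The progenitor genes Myb and Cebpe, which control immature myeloid cells, were at 8.59 and 12.3 CPM against 131 and 114 CPM in progenitors. Genes of patrolling monocytes, the Ly6C-low subset, were detected at low level, with Nr4a1, a transcription factor that this subset requires, at 144 ± 68.7 CPM in monocytes and 39.6 CPM in macrophages.

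**Figure D2:**
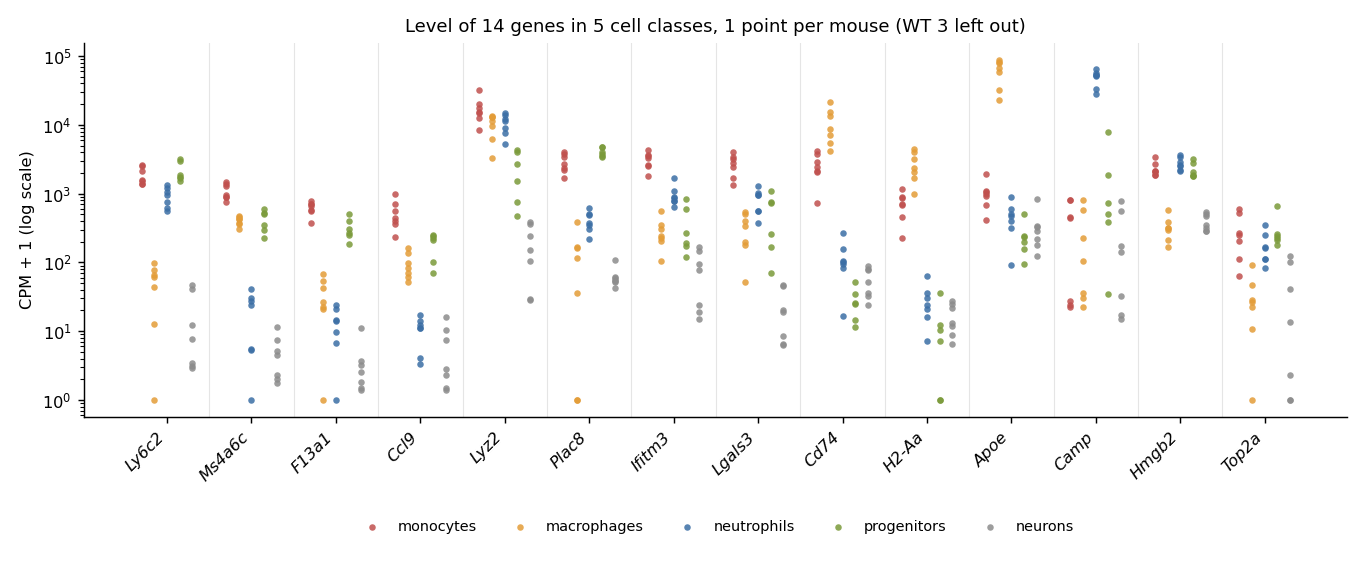
Levels of 14 genes (CPM + 1, log scale) in monocytes, macrophages, neutrophils, progenitors and neurons, 1 point per mouse with at least 10 cells of the class, WT mouse 3 left out. Ly6c2, Ms4a6c and F13a1 chose the monocytes, and Ccl9, Ifitm3 and Lgals3 also lie above macrophages and neutrophils without overlap, whereas Cd74, H2-Aa and Apoe are highest in macrophages and Camp in neutrophils.

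MHC class II genes lay between the other classes. Cd74, the invariant chain that loads class II molecules, averaged 2614 ± 1169 CPM in monocytes, 10869 in macrophages, 117 in neutrophils and 26.4 in progenitors. H2-Aa and H2-Ab1, chains of the class II molecule, followed the same order, at 715 and 807 CPM in monocytes and 2680 and 2940 CPM in macrophages. The expression was uneven among the cells. With each cell thinned to 1500 UMIs, 189 of 1338 monocytes (14.1%) had at least 5 UMIs of the 9 genes of the antigen presentation list, against 39.9% of macrophages, 0.940% of neutrophils and 0.324% of neurons. The share was 31.0%, 21.2%, 0% and 15.6% in WT mice 1 to 4 and 17.6%, 14.8%, 17.1% and 7.68% in Upf3b-null mice 1 to 4. Without WT mouse 3, Upf3b-null mice 2 and 4 lay below the lowest WT share and the other Upf3b-null mice within the WT range. Cd209a, a lectin of monocyte-derived antigen-presenting cells, was found in 58 of the thinned members (4.33%).

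Transcripts of cell division were common. At least 2 UMIs of 12 cell-cycle genes (Mki67, Top2a, Pcna, Mcm5, Mcm6, Birc5, Cdk1, Tyms, Rrm2, Ube2c, Cenpf and Ccnb2) were found in 567 of the thinned monocytes (42.4%), in 70.7% of progenitors, 27.98% of neutrophils, 6.70% of macrophages and 5.55% of neurons. These 12 are the list of 15 without Hmgb2, Tubb5 and Stmn1, which were left out after their levels in neurons were seen. By mouse the share was 37.9%, 19.5%, 42.9% and 37.7% in the WT and 52.5%, 22.2%, 27.6% and 46.1% in the Upf3b-null mice, and the groups overlapped. Within each of the 8 mice it lay above the share in the neurons, which ranged from 0.128% in Upf3b-null mouse 2 to 10.6% in Upf3b-null mouse 4. The cells with these UMIs were also larger before thinning, with a median of 4463 UMIs against 2813 in the rest.

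MHC class II transcripts were less frequent in the cells with cell-cycle transcripts. Of the 567 monocytes with at least 2 cell-cycle UMIs, 26 (4.59%) had at least 5 MHC class II UMIs, against 163 of the other 771 (21.1%). In the WT mice 1, 2 and 4 the shares were 0% against 50.0%, 4.55% against 25.3% and 3.45% against 22.9%. In the Upf3b-null mice 1 to 4 they were 6.70% against 29.6%, 16.7% against 14.3%, 9.52% against 20% and 2.08% against 12.5%. The share was lower among the cells with cell-cycle transcripts in 6 of these 7 mice, and Upf3b-null mouse 2, with 18 such cells of which 3 had MHC class II transcripts, was the exception. WT mouse 3 had no member with 5 MHC class II UMIs. Over all members Ccr2 was found in 59.4% of the cells with cell-cycle transcripts and 60.4% of the others, but in WT mouse 1 in 72.7% and 44.4%, in WT mouse 4 in 69.0% and 52.1%, in WT mouse 3 in 33.3% and 0% and, in the opposite order, in WT mouse 2 in 50% and 63.7%. Plac8 was found in 87.8% and 87.7%. Ccl9 was found in 32.3% of the cells with cell-cycle transcripts and 46.7% of the others, though in WT mouse 1 the order was the opposite, with 59.1% and 38.9%, as it was in WT mouse 3, with 16.7% and 12.5%. These cells share libraries, and the comparison is a description without a test.

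**Figure D3:**
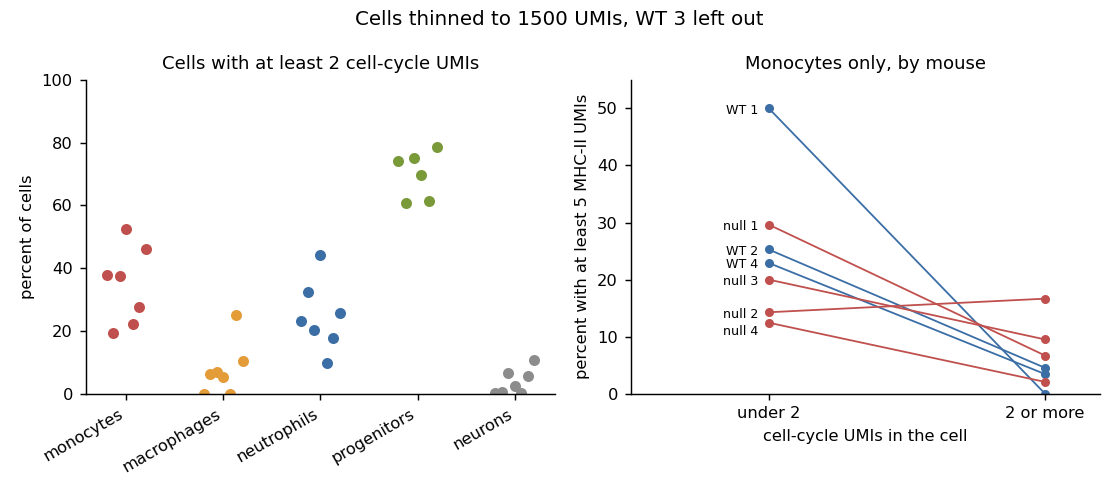
Left, percent of cells with at least 2 UMIs of 12 cell-cycle genes in 5 classes, 1 point per mouse. Right, percent of monocytes with at least 5 MHC class II UMIs among cells with fewer than 2 and with 2 or more cell-cycle UMIs, 1 line per mouse, WT in blue and Upf3b-null in red; all cells were thinned to 1500 UMIs and WT mouse 3 is left out. Monocytes lie below progenitors and overlap with neutrophils on the left, and 6 of 7 lines fall on the right.

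The share of monocytes was compared between genotypes with the mouse as the replicate. Monocytes made up 3.17%, 7.83%, 0.502% and 2.5% of the kept cells in WT mice 1 to 4. They made up 5.56%, 6.07%, 4.44% and 8.93% in Upf3b-null mice 1 to 4. The groups overlapped because WT mouse 2 exceeded 3 of the 4 Upf3b-null mice. The means were 3.50% ± 3.10 (SD, n = 4) in WT and 6.25% ± 1.91 (SD, n = 4) in Upf3b-null mice, a difference of 2.75 percentage points that was not past the spread between mice (two-sided exact permutation test, p = 0.20; adjusted over 4 measures, p = 0.40; the smallest p that 4 against 4 mice allow is 0.0286). Without WT mouse 2 the difference was 4.19 points (exact permutation p = 0.0571), and without WT mouse 3 it was 1.75 points (exact permutation p = 0.343). With only the mice numbered 1 and 2 the difference was 0.321 points. All leukocytes, cells with at least 3 UMIs of the 6 leukocyte genes, made up 18.9% ± 6.01 of kept WT cells and 34.7% ± 13.5 of kept Upf3b-null cells. As a percent of leukocytes, monocytes reached 18.1%, 30.03%, 3.12% and 12.01% in the WT and 21.7%, 28.2%, 10.2% and 17.5% in the Upf3b-null mice. The means of 15.8% ± 11.3 and 19.4% ± 7.55 differed by 3.61 points (exact permutation p = 0.657), and without WT mouse 3 the difference was -0.62 points. The median depth of a monocyte was 2992 ± 876 UMIs in WT and 3699 ± 414 UMIs in Upf3b-null mice (exact permutation p = 0.171), with 1339 ± 287 and 1459 ± 76.8 genes (exact permutation p = 0.486).

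Upf3b itself checked the labels. Its UMIs in the monocytes numbered 4, 6, 5 and 27 in WT mice 1 to 4 and 1, 1, 0 and 0 in Upf3b-null mice 1 to 4. As CPM these were 17.4, 19.9, 88.0 and 76.2 against 0.637, 2.68, 0 and 0, and the groups did not overlap. The 42 WT UMIs came from 941427 UMIs and the 2 Upf3b-null UMIs from 4383948. A count of 0 allows up to 7.98 CPM in Upf3b-null mouse 3 and 1.45 CPM in Upf3b-null mouse 4 (3 UMIs, counting error only). In neurons of the same libraries Upf3b was at 69.9 to 98.1 CPM in WT and at 0 to 2.24 CPM in Upf3b-null mice. The filter on low counts removed Upf3b from the main test. Without the filter it fell by 5.92 on the log2 scale (SE 0.82, edgeR adjusted p = 9.95e-09), and with DESeq2, where it was the 1 gene of 16849 called (0.00594%), its log2 fold change was -6.23 (adjusted p = 0.000151).

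**Figure D4:**
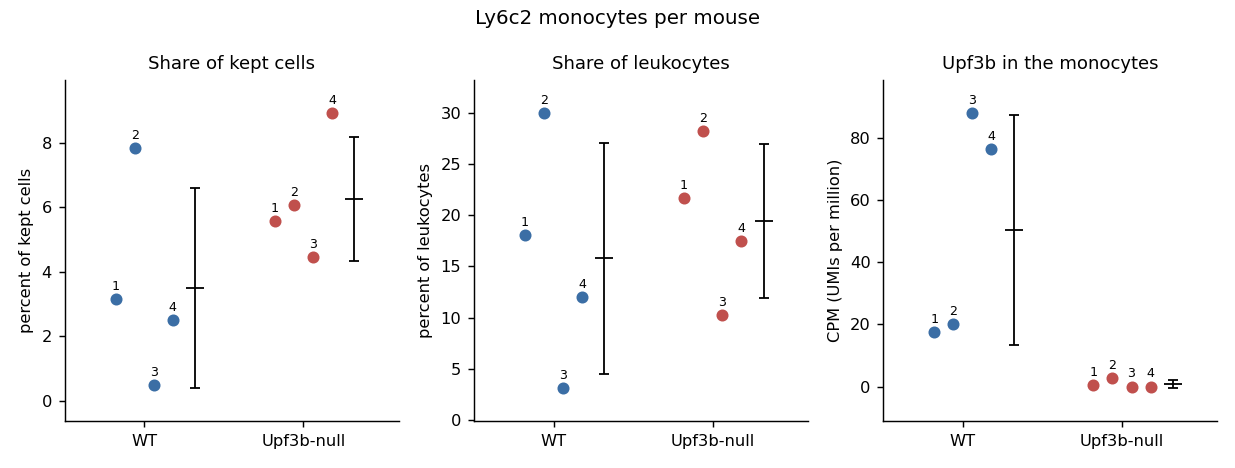
Monocytes as percent of kept cells (left) and of leukocytes (middle), and Upf3b in CPM of the monocyte sum (right), for WT (blue) and Upf3b-null mice (red). Points are mice, labelled by number; the bar and whiskers are mean ± SD (n = 4 per genotype). The shares of the genotypes overlap, and all 4 Upf3b-null mice lie below all 4 WT mice for Upf3b.

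No gene passed in the main comparison of genotypes. UMI counts summed per mouse were tested for 4296 genes with edgeR's quasi-likelihood test, and 0 (0.0% of those tested) were called at an adjusted p under 0.05. An unadjusted p under 0.05 was reached by 37 (0.861%). The median log2 fold change was 0.02. Of the genes tested, 22 (0.512%) were higher in every Upf3b-null mouse than in every WT mouse and 20 (0.466%) lower, 42 in all (0.978%). After the TMM scaling that edgeR uses, these became 33 (0.768%) and 9 (0.209%). Counts over all genes tested include genes that the rule used. Ctsg, a granule gene that the rule limited, is among the 37 and the 22 and was named after its values were seen. It was at 30.5, 19.9, 17.6 and 14.1 CPM in WT and at 38.2, 37.5, 39.9 and 37.8 CPM in Upf3b-null mice, given as values only. Without WT mouse 3 the adjusted test called 0 genes, and with only the mice numbered 1 and 2 it called 1. It was Wfdc18, a secreted protein with a WAP domain, which was named after its values were seen. It stood at 118 and 99.7 CPM in WT mice 1 and 2 and at 1185 and 1568 CPM in Upf3b-null mice 1 and 2. It reached 1549 and 2612 CPM in WT mice 3 and 4, so that the genotypes overlapped over all 8. In the neurons of WT mice 1 to 4 it stood at 58.8, 547, 3939 and 6492 CPM and in those of Upf3b-null mice 1 to 4 at 782, 39.1, 1162 and 3337 CPM, so that in mice 2 the neurons did not follow the order of the monocytes.

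Dropping the filter called 7 genes of 16877 (0.0415%), of which 6 are named here, after their values were seen. The 3 that were lower were Upf3b, Frzb and Wfdc12, and each of the latter came from 1 library (8 UMIs in WT mouse 3 and 12 UMIs in WT mouse 4). Those named that were higher were Nkg7 and Gzma, which encode granule proteins of killer lymphocytes, and the predicted gene Gm8730. Nkg7 had 3, 0, 0 and 3 UMIs in WT mice 1 to 4 and 36, 31, 29 and 28 in Upf3b-null mice 1 to 4. As CPM these were 13.1, 0, 0 and 8.47 against 22.9, 82.9, 77.1 and 13.6, so that Upf3b-null mouse 4 lay just above WT mouse 1. Of its 130 UMIs, 80.8% lay in 19 members with at least 2 UMIs of the T and NK cell genes. Of these members, 18 were in Upf3b-null mice, 7 of them in Upf3b-null mouse 4, and 1 was in WT mouse 1. All monocytes numbered 1076 in Upf3b-null and 262 in WT mice. Nkg7 is on the T and NK cell list, so its share is in part fixed by the choice of cells, whereas Gzma and Ccl5 are not on it. Gzma, at 0 in all WT mice and at 10, 13, 14 and 8 UMIs in the Upf3b-null mice, had 71.1% of its UMIs in these 19 cells, though none of the 8 in Upf3b-null mouse 4. The Upf3b-null values were 6.37, 34.8, 37.2 and 3.88 CPM, and those of mice 1 and 4 lay under the 8.47 CPM or more that 0 UMIs allow in each WT mouse (3 UMIs). Gm8730 was at 209, 223, 141 and 133 CPM in WT and at 1458, 235, 327 and 497 CPM in Upf3b-null mice. The groups did not overlap. In Upf3b-null mouse 1 it also stood out in macrophages, at 800 CPM against 138 CPM in the highest WT mouse. Ccl5, a chemokine gene, passed no adjusted limit and was also chosen after its values were seen. It was at 95.8, 3.32, 17.6 and 5.65 CPM in WT and at 346, 417, 524 and 36.8 CPM in Upf3b-null mice. In macrophages Ccl5 was at 9.85, 278, 20.2 and 15.4 CPM in WT and at 103, 0, 0 and 40.5 CPM in Upf3b-null mice. Of the 998 Ccl5 UMIs in monocytes, the 19 cells held 502. A further 449 lay in 1 cell of Upf3b-null mouse 1 that was not among the 19. The T and NK cell genes were not confined to lymphocytes by these values: in the myeloid progenitors they summed to 659 ± 179 CPM (mean ± SD over mice). Whether members that are lymphocytes or close to progenitors, or that carry RNA of either, account for these differences was not tested.

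Of 28 genes on the monocyte identity list all 28 were tested, 9 were higher and 19 lower in Upf3b-null mice, with a median log2 fold change of -0.10, beside 2254 higher and 2042 lower and a median of 0.02 over all genes tested. Without WT mouse 3 the median of the list was -0.31, and without WT mouse 2 it was 0.16. Lyz2 stood at 15030, 32644, 5104 and 12460 CPM in WT mice 1 to 4 and at 15216, 20282, 17665 and 8373 CPM in Upf3b-null mice 1 to 4. The groups overlapped, and without WT mouse 3 only Upf3b-null mouse 4 lay below the WT range. Ccl9 stood at 566, 1001, 70.4 and 364 CPM in the WT and at 446, 706, 399 and 235 CPM in the Upf3b-null mice. Its log2 fold change was -0.14 (SE 0.54, edgeR adjusted p = 1.00), and -0.47 without WT mouse 3, but 0.45 without WT mouse 2 and 0.07 without Upf3b-null mouse 4. The summed level of the list ranged from 13219 CPM in WT mouse 3 to 65350 CPM in WT mouse 2, and from 23071 to 45420 CPM in Upf3b-null mice. Of the genes that the rule used, for which no test is given, Ly6c2 was at 2165, 2596, 1214 and 1381 CPM in WT and at 1558, 2515, 1524 and 1400 CPM in Upf3b-null mice, and the groups overlapped.

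Vcan, the proteoglycan versican that monocytes secrete, was the identity gene with an unadjusted p under 0.05 and was singled out after its values were seen. It stood at 69.7, 63.2, 0 and 64.9 CPM in WT mice 1 to 4 and at 38.8, 13.4, 21.3 and 19.4 CPM in Upf3b-null mice 1 to 4. Its log2 fold change was -1.18 (SE 0.47, edgeR adjusted p = 1.00). WT mice 1, 2 and 4 lay above all Upf3b-null mice, and the 0 UMIs of WT mouse 3 allow up to 52.8 CPM (3 UMIs), which is above the whole Upf3b-null range. Leaving it out gave -1.39 (SE 0.39, edgeR adjusted p = 1.00). Il1b, the cytokine interleukin 1 beta, was at 205, 126, 35.2 and 164 CPM in the WT and 99.3, 77.6, 26.6 and 48.5 CPM in the Upf3b-null mice. Its log2 fold change was -1.10 (SE 0.43, edgeR adjusted p = 1.00), and without WT mouse 3, the only WT value that overlapped, -1.31 (SE 0.39, edgeR adjusted p = 1.00). Csf1r, the receptor for the growth factor CSF1, was also chosen after its values were seen, at 118, 143, 52.8 and 129.9 CPM in WT and 71.9, 109.7, 66.5 and 97.4 CPM in Upf3b-null mice (edgeR adjusted p = 1.00). Vcan and Csf1r were the 2 of 28 identity genes that were lower in every Upf3b-null mouse than in WT mice 1, 2 and 4. Without WT mouse 3, 63 genes (1.47% of those tested) were lower in every Upf3b-null mouse and 38 (0.885%) higher. Il1b was also the 1 gene of the 7 tested of the cytokine and chemokine list with an unadjusted p under 0.05. All 7 had a lower estimate in Upf3b-null mice, with a median of -0.21, which was -0.57 without WT mouse 3. The median was -0.78 without Upf3b-null mouse 2, -0.05 without Upf3b-null mouse 4 and 0.0089 with replicate number as a block. The most abundant of the 7 genes, the chemokine Ccl6, was at 893, 1576, 52.8 and 551 CPM in WT and at 541, 902, 713 and 425 CPM in Upf3b-null mice.

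**Figure D5:**
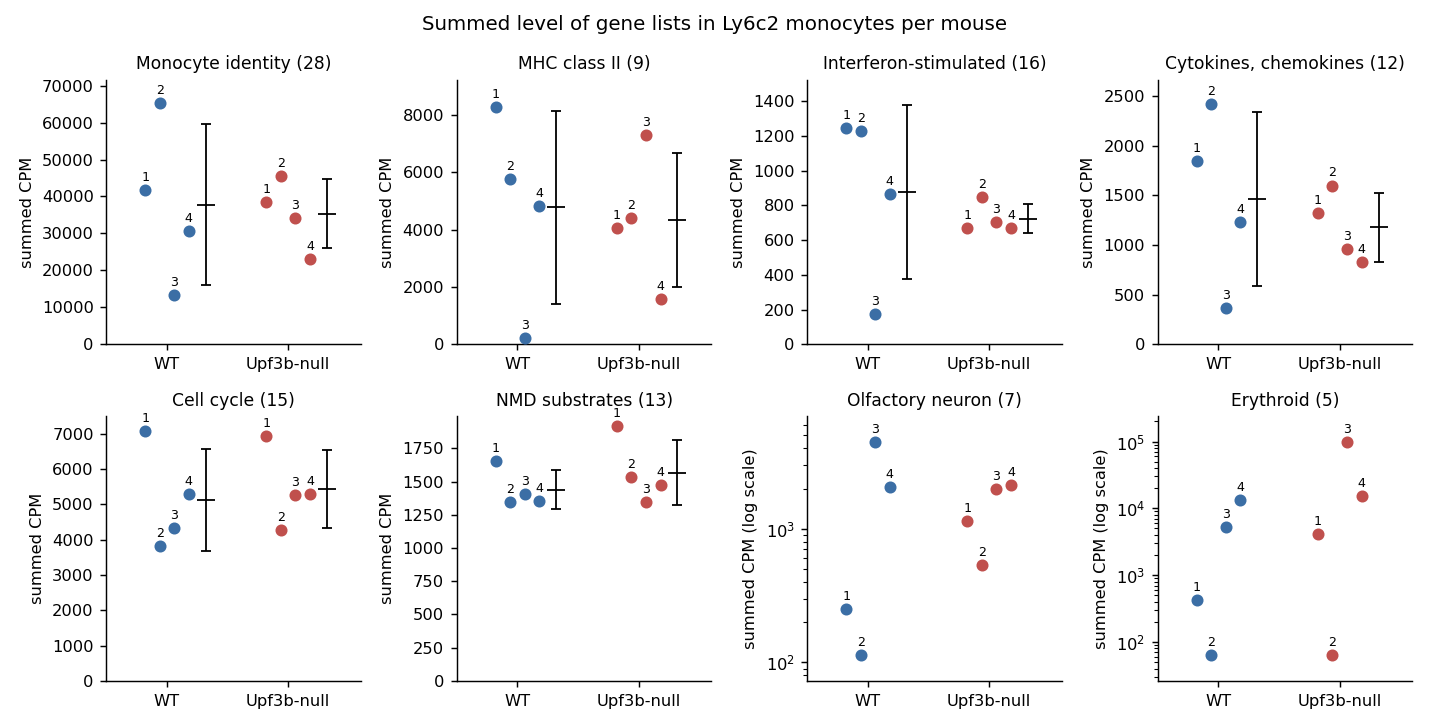
Summed CPM in the monocytes of each mouse for 8 gene lists (number of genes in brackets), WT in blue and Upf3b-null in red, points labelled by mouse number. Linear panels show mean ± SD (n = 4 per genotype) beside the points and start at 0, and the olfactory neuron and erythroid panels have log axes; in each panel the genotypes overlap.

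The remaining lists gave no call. For MHC class II, 7 of 9 genes were tested, 2 higher and 5 lower, with a median of -0.13, which was -0.51 without WT mouse 3 and 0.34 without WT mouse 1. Markers of macrophages, in which these genes were higher, had 3 lower estimates of 3 tested, and their summed level was 1238 ± 655 CPM in the WT mice against 873 ± 292 CPM in the Upf3b-null mice. Of the dendritic cell markers 1 was tested, with a lower estimate, and the sums were 101.5 ± 79.4 and 100.96 ± 45.6 CPM. Their part in the MHC class II values was not tested. Cd74 was at 4220, 2909, 70.4 and 2428 CPM in WT and at 2141, 2079, 3801 and 721 CPM in Upf3b-null mice, with a log2 fold change of -0.05 (SE 0.83, edgeR adjusted p = 1.00), and -0.45 (SE 0.45) without WT mouse 3. The estimate turned to 0.34 without WT mouse 1, 0.08 without WT mouse 2 and 0.24 without Upf3b-null mouse 4. WT mouse 3 and Upf3b-null mouse 4 were the lowest of each group. Among interferon-stimulated genes, 8 of 16 were tested, 7 lower and 1 higher, with a median of -0.26, which was -0.53 without WT mouse 3. Bst2, the antiviral protein tetherin, was at 553, 372, 17.6 and 155 CPM in WT and at 181, 420, 263 and 82.9 CPM in Upf3b-null mice. The immediate early genes, which respond to stress and to tissue dissociation, had 10 of 12 tested, 2 higher and 8 lower, with a median of -0.19, and of -0.52 over the 11 tested without WT mouse 3. Fos was at 1263, 3058, 634 and 1776 CPM in the WT and at 1288, 2207, 1011 and 1286 CPM in the Upf3b-null mice. The groups overlapped, and without WT mouse 3 only Upf3b-null mouse 3 lay below the WT range. Of 6 genes of patrolling monocytes tested, all 6 had a lower estimate and none an unadjusted p under 0.05. The phagocytosis list had 3 higher and 7 lower of 10 tested, the adhesion list 4 and 5 of 9, and the granule list 5 and 8 of 13. The median of the granule list turned from -0.09 to 0.12 without WT mouse 3.

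Cell-cycle genes had estimates on the higher side, with 12 of 15 higher and 3 lower and a median of 0.22, but none with an unadjusted p under 0.05. Hmgb2, a chromatin protein of dividing cells, was at 3397, 1858, 1320 and 2038 CPM in WT and at 2695, 1878, 2107 and 2109 CPM in Upf3b-null mice. Top2a, a topoisomerase of dividing cells, was at 253, 63.2, 458 and 528 CPM in WT and at 269, 112, 202 and 605 CPM in Upf3b-null mice. In both genes the genotypes overlapped.

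Genes of NMD and its known substrates were examined because the mice lack an NMD factor. Of 17 NMD factors 8 were tested, 3 higher and 5 lower, with a median of -0.13, which turned to 0.07 over the 9 tested without WT mouse 3. Eif4a3, a core protein of the exon junction complex, was at 56.6, 69.8, 52.8 and 56.5 CPM in WT and at 91.0, 72.2, 74.5 and 65.4 CPM in Upf3b-null mice, with Upf3b-null mouse 4 below WT mouse 2. Of 17 substrates named in the list, 13 were in the tables and 10 were tested, with 7 higher and 3 lower and a median of 0.24. Srsf3, a splicing factor that limits its own level through a transcript degraded by NMD, was at 427, 366, 282 and 387 CPM in WT and at 465, 412, 404 and 368 CPM in Upf3b-null mice. The groups overlapped through WT mice 1 and 4. No tested gene of these lists had an unadjusted p under 0.05. Snhg6, a noncoding host gene of snoRNAs that is not on the lists and was chosen after its values were seen, was at 43.6, 33.2, 52.8 and 50.8 CPM in WT and at 85.3, 134, 53.2 and 92.1 CPM in Upf3b-null mice (edgeR unadjusted p = 0.0097, adjusted p = 1.00). The groups did not overlap, but WT mouse 3, with 3 UMIs, and Upf3b-null mouse 3 were nearly equal. In the neurons Snhg6 was at 42.8 to 58.0 CPM in WT and at 76.1 to 160 CPM in Upf3b-null mice. In the macrophages the groups overlapped, at 46.3 to 104 and 51.4 to 105 CPM.

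RNA of other cells varied between mice of both genotypes. The 4 erythroid genes tested all had higher estimates in Upf3b-null mice, with a median of 2.87, and none had an unadjusted p under 0.05. Hbb-bs had a log2 fold change of 2.57 (SE 2.15, edgeR adjusted p = 1.00), which rested on Upf3b-null mouse 3: without it the estimate was 0.40. The 5 olfactory neuron genes tested had a median of -0.10, which became 0.85 without WT mouse 3. The 5 genes of supporting and gland cells tested had 5 lower estimates. The summed level of T and NK cell genes was 43.6, 0, 0 and 14.1 CPM in WT and 28.6, 136, 122 and 20.8 CPM in Upf3b-null mice, with Nkg7 the most abundant. In the myeloid progenitors the same genes summed to between 418 and 859 CPM. The part of this RNA in the comparisons of genotypes was not tested. In sums over cells, fewer transcripts per cell and a lower share of cells with a transcript cannot be told apart.

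The genotype effect in monocytes was set against that in the 2 most like classes by a class by genotype term. Between monocytes and macrophages 0 of 5294 genes (0.0%) passed an adjusted p of 0.05 in edgeR, 109 had an unadjusted p under 0.05 and DESeq2 called 0. Between monocytes and neutrophils 0 of 5268 (0.0%) passed, 116 had an unadjusted p under 0.05 and DESeq2 called 0.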

How the data were processed

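Single-cell suspensions of the OE of 8 mice were run on the 10x Chromium platform (v2 chemistry). For each library the authors deposited a matrix of UMI counts without normalization, restricted to the cells called by Cell Ranger after mapping to mm10. The bulk count tables of the series were not used here. The members, the gene lists and the tests were chosen with earlier results of these data known. No doublet caller was run. Genes named are Upf3b, the markers, genes past the adjusted limit and the 4 most abundant genes of each list (2 for lists of other cells); others are said to be chosen after their values were seen, and 1 gene called without the filter is not reported here. Neurons were kept cells outside the leukocytes with at least 5 UMIs of olfactory neuron genes. Counts were summed per mouse over members (at least 10 cells) and tested with edgeR 4.0.16 (TMM, filterByExpr, robust quasi-likelihood F test, Benjamini-Hochberg adjustment) in R 4.3.3; DESeq2 1.42.0 was an alternative. Shares were compared by exact permutation (numpy 2.4.6). Each library held 1 mouse, so p-values measure the spread between mice. Cells were thinned to 1500 UMIs without replacement with a fixed seed. Both the edgeR and the permutation steps were tested on simulated data. The member sums held 56814 to 2063444 UMIs per mouse, and intervals from counts cover counting error only. Alternatives were DESeq2, no filter, other size factors, a limit of 5 UMIs for the monocyte genes, the rule on thinned cells, removal of shared barcodes and of doublet-like cells, at least 30 cells, replicate number as a block and leaving out each mouse.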

Additional observations from a re-analysis of the deposited data

Results flagged for a closer look

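In 7 of 82 groups of 4 mice examined, 1 mouse lay far from the other 3 of its genotype by the ratio of its gap to the range; chance alone gives this in about 1 group in 20. WT mouse 3 did so 5 times. Its monocytes had the highest WT Camp (10754 CPM), Ngp (11054 CPM, another neutrophil granule protein) and summed granule genes (28162 CPM). Its thinned monocytes had the lowest WT shares of cells with a UMI of Ccr2 (14.3%) and Plac8 (21.4%). Before thinning the share in WT mouse 3 was 28.6% for each of these genes. Upf3b-null mouse 2 had the highest Ly6c2 of its genotype (2515 CPM), a gene that the rule used. Upf3b-null mouse 3 had the highest summed erythroid genes of its genotype (98387 CPM).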

How the results depend on the processing

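The count of genes past the adjusted limit was 0 in 16 of 19 alternatives. It was 1 with DESeq2 (Upf3b), 7 with no filter and 1 with the mice numbered 1 and 2 only (Wfdc18), a choice made after the data were seen. The DESeq2 fit tested 16849 genes against 4296 in the main fit. Tool and filter thus changed together, and edgeR without the filter also called Upf3b. Leaving out 1 mouse gave 0 to 0 genes in monocytes, 0 to 1 against macrophages (the 1 was Galm, without WT mouse 4) and 0 to 0 against neutrophils, where no filter gave 2 (F3 and Timp3). The share of kept cells kept its direction and stayed short of the limit in 14 alternatives (0.321 to 4.19 points, p between 0.0571 and 1; leave-one-out 1.75 to 4.19), though the mice numbered 1 and 2 alone (smallest p 0.333) and the block (0.125) could not have reached it. The share of leukocytes ranged from -0.62 (without WT mouse 3) to 8.35 points when 1 mouse was left out. Vcan (-1.55 to -0.97) and Il1b (-1.40 to -0.84) kept their direction in 19 alternatives, with edgeR adjusted p no lower than 0.32 and 0.28, both under the block of numbers 1, 2 and 4, and Hbb-bs did too (0.40 to 4.23).

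The replicate numbers were not taken to pair the mice, because 1 of 4 correlations between the deviations of same-numbered mice (0.37, 0.53, -0.03 and 0.50 for numbers 1 to 4) was under 0.1; that number includes WT mouse 3. With a replicate block 0 genes passed (85 at an unadjusted p under 0.05), also 0 on numbers 1, 2 and 4 (274), a fit added after the data were seen, and the share of kept cells had an exact sign-flip p of 0.25 (the smallest possible is 0.125). Under the block Ccl9 became 0.0077 and the cytokine list median 0.0089.

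Reversals without 1 mouse were, for Ccl9, 0.45 (WT 2) and 0.07 (null 4); for Cd74, 0.34 (WT 1), 0.08 (WT 2) and 0.24 (null 4); for the identity median, 0.02 (WT 1) and 0.16 (WT 2); and for the MHC class II median, 0.34 (WT 1) and 0.16 (null 4). The lowest values without 1 mouse were -0.47 for Ccl9, -0.50 for Cd74, -0.31 for the identity median and -0.59 for the MHC class II median. The causes were not tested. Removing cells with neuron, supporting cell or most erythroid RNA took 764 members and left WT mice 1 and 2 and Upf3b-null mice 1, 2 and 4 in the fit. There Cd74 was -0.87, Ccl9 -0.67, and the medians -0.87 for MHC class II, -0.63 for cytokines and -0.53 for interferon-stimulated genes. The MHC class II median was -0.74 with the mice numbered 1 and 2 and -1.02 under the block of numbers 1, 2 and 4, where Cd74 was -1.02 (SE 0.25, edgeR adjusted p = 0.33). The interferon median was -0.62 with at least 5 UMIs of the monocyte genes. The comparisons rest on 14 cells in WT mouse 3 and on the 4296 genes past the filter.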
